A study of Mus musculus with 4 samples.

Results

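The genes described are 10 members of the MHC class I presentation pathway in the mouse nasal mucosa: the heavy chains *H2-K1*, *H2-D1* and *H2-T23*, the light chain *B2m*, the peptide transporter subunits *Tap1* and *Tap2*, the loading factor *Tapbp*, the immunoproteasome subunits *Psmb8* and *Psmb9*, and the transactivator *Nlrc5*. They were chosen by name, and a probe was taken as theirs where its accession, among the non-control probes of the array, belonged to one of these symbols in RefSeq. All 10 genes were found, with 15 of the 56605 probes, among 45616 genes tested. Gene expression was measured on 4 one-color Agilent arrays of septal nasal mucosa from C57BL/6 mice (C57BL/6J in the strain label; the titles name olfactory epithelium), taken directly after death. No allele is given for either age, and no treatment other than in a label set aside below. The young adult mice were 8 weeks old by the labels (the study's text counts months), and the aged mice were 16 months old. Each age had 2 arrays, and each array held RNA pooled from 5 mice, so no error bar below shows the spread between mice. The SD bars are the spread between pools. The standard errors and intervals come from limma's fit, which moderates the spread of each gene by that of all genes. The study gives fewer mice of each age for its gene work than both pools would hold if no mouse were shared, and whether the pools share mice is not stated, so the spread may be technical. The study describes the mice as male, but *Xist*, the RNA of the inactive X chromosome in females, was above background on all 4 arrays (612 to 645), and none of the 4 Y-linked genes listed as markers was above background on any array. That discrepancy was shared by both ages and cannot be removed by leaving out an array. A label that names silica aspiration and lung matches neither the sample titles nor the study and was not used.

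MHC class I molecules show fragments of a cell's own proteins to CD8 T cells and are read by natural killer cells. The fragments are cut by the proteasome, in which interferon replaces constitutive catalytic subunits with immunoproteasome subunits. The TAP transporter then carries them into the endoplasmic reticulum, where tapasin holds the empty heavy chain and beta-2-microglobulin until a peptide is bound. Nearly all nucleated cells carry class I molecules, neurons carry little, and NLRC5, itself induced by interferon, raises the transcription of the heavy chains, *B2m*, *Tap1* and the immunoproteasome genes together.

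The promoters of classical class I genes hold short elements that these factors read: enhancer A, which holds a kappa B site, an interferon response element bound by IRF factors, and a module that includes an X2 box (a CREB or ATF site) and a Y box (bound by NF-Y), on which NLRC5 acts. The 250 bases before the annotated start, taken from RefSeq for the GRCm38.p6 build, were listed for 8 of the 10 genes, with *Tap2* and *Nlrc5* not among them; for *H2-K1* the first of 2 listed starts was used. Each window was searched on both strands for GGGNNTTNC (the core of a kappa B site), AANNGAAA (the core of an IRF site), TGACG (X2) and CCAAT (Y). The windows of *H2-K1* at chr17:34000348-34000597 (minus strand), *H2-D1* at chr17:35262844-35263093 (plus strand), *H2-T23* at chr17:36032702-36032951 (minus strand), *B2m* at chr2:122147437-122147686 (plus strand) and *Tap1* at chr17:34187306-34187555 (plus strand) are printed. These windows set the elements shared by *H2-K1*, *H2-D1* and *B2m* beside the windows of *H2-T23* and of the transporter subunit *Tap1*. They run 5′ to 3′ on the strand of the gene, with each match in capitals; a match on the other strand appears as its reverse complement, such as ATTGG for CCAAT.
H2-K1: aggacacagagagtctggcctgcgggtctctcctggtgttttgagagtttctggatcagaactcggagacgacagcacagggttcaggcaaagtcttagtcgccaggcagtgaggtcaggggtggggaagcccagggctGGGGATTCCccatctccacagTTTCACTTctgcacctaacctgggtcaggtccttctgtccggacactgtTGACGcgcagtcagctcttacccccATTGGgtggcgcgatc
H2-D1: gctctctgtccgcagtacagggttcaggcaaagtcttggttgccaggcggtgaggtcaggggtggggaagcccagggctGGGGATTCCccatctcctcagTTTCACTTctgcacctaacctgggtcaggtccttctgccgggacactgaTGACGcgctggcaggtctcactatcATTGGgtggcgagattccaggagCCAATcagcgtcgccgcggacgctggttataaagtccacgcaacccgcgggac
H2-T23: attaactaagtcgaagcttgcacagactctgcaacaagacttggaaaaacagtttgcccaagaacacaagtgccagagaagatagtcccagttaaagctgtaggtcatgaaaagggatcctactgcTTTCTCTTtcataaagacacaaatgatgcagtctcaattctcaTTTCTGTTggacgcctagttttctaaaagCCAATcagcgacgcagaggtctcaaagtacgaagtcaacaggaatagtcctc
B2m: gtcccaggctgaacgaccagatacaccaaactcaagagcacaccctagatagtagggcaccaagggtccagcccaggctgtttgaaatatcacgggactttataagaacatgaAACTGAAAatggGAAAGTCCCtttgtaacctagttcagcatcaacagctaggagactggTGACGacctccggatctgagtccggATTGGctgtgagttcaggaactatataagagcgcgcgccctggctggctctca
Tap1: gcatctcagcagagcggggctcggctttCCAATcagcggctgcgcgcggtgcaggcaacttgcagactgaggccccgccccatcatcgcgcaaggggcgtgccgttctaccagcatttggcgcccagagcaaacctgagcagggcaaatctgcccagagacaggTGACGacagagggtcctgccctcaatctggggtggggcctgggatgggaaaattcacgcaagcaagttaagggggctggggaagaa

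The classical heavy chains *H2-K1* and *H2-D1* carried all 4 elements in the same order, and their windows matched at 161 of 177 aligned positions (91%). *B2m* carried all 4 as well, with the IRF core ahead of the kappa B site. The kappa B letters were found in these 3 of the 8 windows, against 4271 (13%) of the 32851 windows of the whole RefSeq table, and all 4 elements together in 58 (0.177%) of them. The IRF core was found in 4 windows, those of *H2-K1*, *H2-D1*, *H2-T23* and *B2m*, against 21.3% of all windows. X2 was found in 5 (all windows, 17.8%) and Y in 7 (all windows, 33.8%), *Psmb8* being the window with neither, and 5 windows held both, against 6.12% of all. In *H2-K1*, *H2-D1* and *B2m*, TGACG was followed by ATTGG, with 25 bases from the start of one to the start of the other. That spacing was noticed in these windows and then counted in all, where 30 (0.0913%) held it, among them that of the class I gene *H2-M3*. *H2-T23* had an IRF core 2 times and a Y match, without TGACG. No 2 matches in a window overlapped. The windows of *Tap1* and *Psmb9* share 225 bases, since these neighbouring genes are read in opposite directions from one stretch of DNA, so their X2 and Y matches are the same letters. Along chromosome 17 the protein-coding genes *Psmb9*, *Tap1*, *Psmb8* and *Tap2* follow one another directly, between the class II genes *H2-DMb1* and *H2-Ob*. These matches describe letters in a reference sequence and are not measured binding sites.

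**Figure D1:**
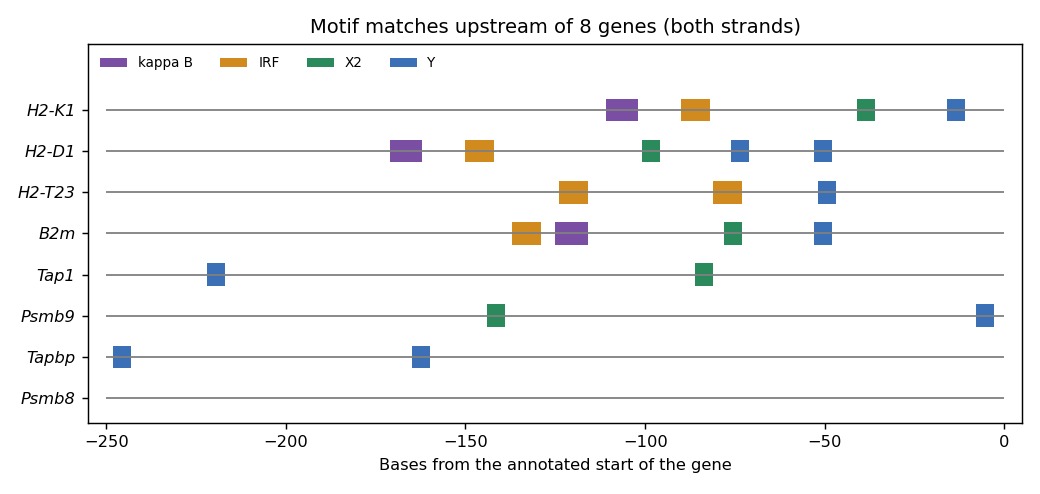
Positions of the kappa B, IRF, X2 and Y matches (coloured boxes) in the 250 bases before the annotated start of 8 genes; the horizontal axis gives bases from the start. *H2-K1*, *H2-D1* and *B2m* carry all 4, with X2 and Y at one spacing, and *Psmb8* has no match.

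The arrays of one age were alike over all genes. In the genes described, aged array 1 stood apart in *Tap2*, at 360 against 460 to 499 on the other arrays. There its dim probe read 20.6 against 36.1 to 41.7. The median background was 67 and 63 on the arrays numbered 1 and 32 and 39 on those numbered 2. Between 63.1 and 76.8% of the non-control spots were well above background, no spot was saturated, and the 10 genes had a mean normalized intensity of at least 100. Of their 15 probes, 13 were above background on all 4 arrays; the exceptions are named with *Tap2* and *Nlrc5*. Young adult array 1 shared a slide with aged array 1. Intensities below are quantile-normalized and in arbitrary units, a level of a gene with several probes is their average on the log2 scale, and levels of different probes cannot be set against each other. A difference is the log2 fold change of aged against young adult mice with the standard error of limma's moderated fit. Calls required P below 0.05 together with a false discovery rate (FDR, Benjamini-Hochberg over the 45616 genes) below 0.25, the study's significance limits. The study further required a mean of at least 100 and a fold change of at least 1.5. Those limits were applied here only as an alternative, so a called gene need not meet them.

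All 10 genes had a lower mean in aged mice, by small amounts, and no gene passed the test. Log2 fold changes ranged from -0.34 (*B2m*) to -0.08 (*Tapbp*) with a median of -0.20, a difference of -12.9%, while the median over all genes tested was 0.01. Called lower were 0 of the 10, against 2.33% of all genes, and called higher were 0, against 1.65%. The smallest FDR among them was 0.35, for *H2-T23*. At an unadjusted P below 0.05, 4 were lower (*H2-T23*, *B2m*, *Psmb8* and *Nlrc5*), against 7.09% of all genes and 8.73% of the genes with a mean of at least 100. Fitted one by one, 14 of their 15 probes were lower and none was called, against 2.65% of all probes called lower. No member was higher at an unadjusted P below 0.05, against 6.05% of all genes. In 8 genes each aged array was below each young adult array, which held for 21.8% of all genes and 26.4% of those with a mean of at least 100; the exceptions were *Tap2* and *Tapbp*. A lower mean alone was found for 48.5% of all genes and for 46.8% of those with a mean of at least 100. These pathway members share regulators and are not independent of one another, and in RNA of a whole tissue, fewer cells of a type and less RNA per cell cannot be told apart.

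**Figure D2:**
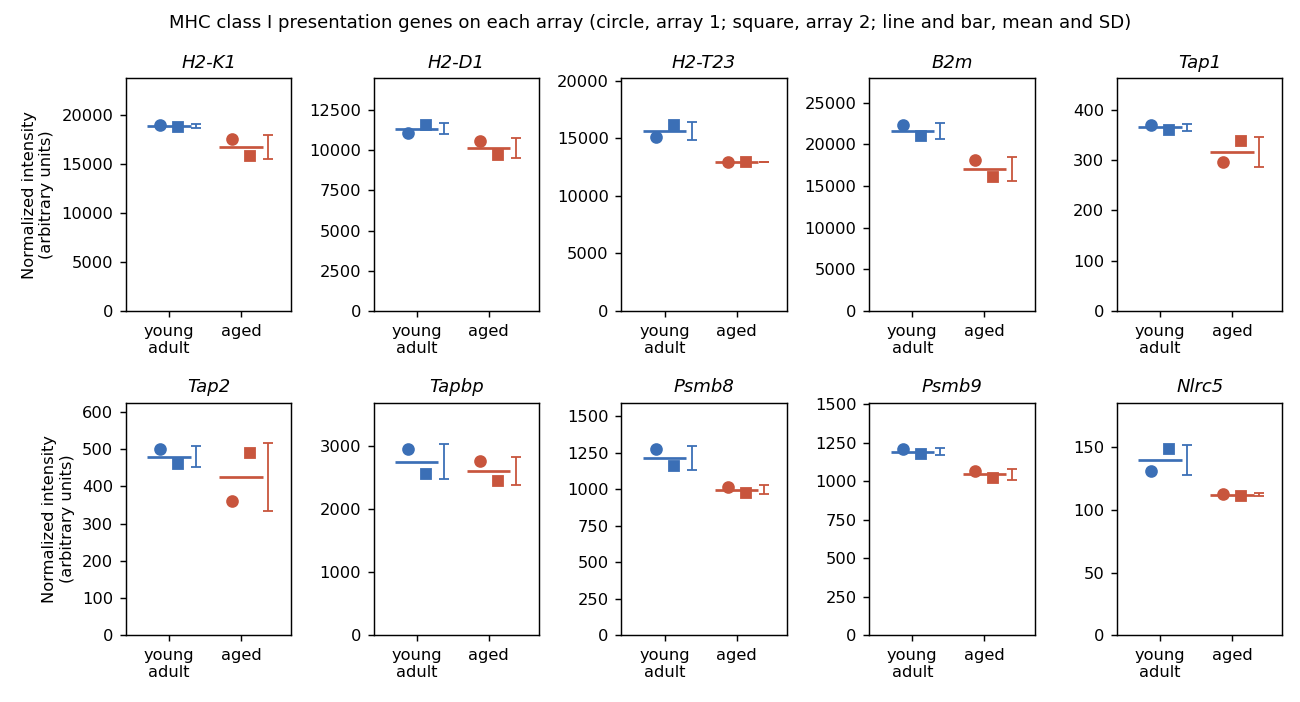
Normalized intensity (arbitrary units, linear axes from 0) of the 10 genes on each array, with blue for young adult and red for aged mice; circles are array 1 and squares array 2 of an age, the line is the mean and the bar the SD (n = 2 pools). Both aged points lie below both young adult points except in *Tap2* and *Tapbp*.

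The heavy chains present the peptide. *H2-K1*, one of the classical chains of this strain, read 18978 and 18727 in the young adult pools and 17572 and 15844 in the aged pools. Both aged arrays were lower, with the distance between them wider than that between the young adult arrays. Its log2 fold change was -0.18 ± 0.09 (SE; limma FDR = 0.534). The aged arrays were also lower on each of its probes, narrowly so: one read 33997 and 30264 against 30109 and 27142 (log2 fold change -0.17), the other 10594 and 11588 against 10256 and 9249 (-0.19). *H2-D1*, the other classical chain, read 11085 and 11568 in the young adult pools and 10582 and 9718 in the aged pools. Its groups did not overlap, but the highest aged array was near the lowest young adult array, and the log2 fold change was -0.16 ± 0.09 (SE; limma FDR = 0.556). The 95% intervals ran from -0.46 to 0.10 for *H2-K1* and from -0.43 to 0.11 for *H2-D1*, so they include differences of either sign. Class I heavy chains are close relatives in sequence, and cross-hybridization between them on these probes was not tested.

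*H2-T23* encodes Qa-1, a non-classical chain that shows leader peptides of other class I molecules to the CD94 and NKG2 receptors of natural killer cells. It read 15077 and 16156 in the young adult pools and 12901 and 12903 in the aged pools. The aged arrays were nearly equal and lay well below both young adult arrays. A log2 fold change of -0.27 ± 0.08 (SE), or -17.3%, had a 95% interval from -0.52 to -0.03 (limma FDR = 0.35).

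*B2m* encodes beta-2-microglobulin, the light chain without which class I molecules do not reach the cell surface. Its level was 22311 and 20945 in young adult mice against 18054 and 16062 in the aged pools. Every aged array was below every young adult array, and the gap between the ages exceeded the spread within either. The log2 fold change was -0.34 ± 0.10 (SE), or -21.2%, with a 95% interval from -0.66 to -0.03 (limma FDR = 0.35). Other members differed more than *B2m* with the processed signal, on the slide of both ages, and without young adult array 1 or aged array 2.

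Peptide supply to the endoplasmic reticulum was measured through *Tap1*, *Tap2* and *Tapbp*, of which *Tap2* and *Tapbp* overlapped between the ages. *Tap1*, a subunit of the transporter, read 369 and 359 in the young adult pools and 295 and 337 in the aged pools. The aged arrays were lower but spread further apart than the young adult ones, for a log2 fold change of -0.21 ± 0.10 (SE; limma FDR = 0.516). Its brighter probe separated the ages, at 709 and 683 against 556 and 598 (log2 fold change -0.27), whereas its dimmer probe, at 192 and 189 against 157 and 189 (-0.15), did not.

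*Tap2*, the partner subunit, depended on which probe was read. Its bright probe gave 5966 and 5861 in the young adult pools and 6287 and 6084 in the aged pools, a log2 fold change of 0.06 ± 0.08 (SE), with both aged arrays above the young adult ones. The dim probe read 41.7 and 36.1 against 20.6 and 39.4, and it was above background on 1 young adult array and on no aged array, so no fold is given for it. The average of both probes, at 499 and 460 against 360 and 489, with a log2 fold change of -0.19 ± 0.19 (SE; limma FDR = 0.715), therefore took its sign from the dim probe. *Tapbp*, which encodes tapasin, read 2954 and 2562 in the young adult pools and 2762 and 2450 in the aged pools. Its groups overlapped, with the number 1 arrays of both ages above the number 2 arrays, and the log2 fold change was -0.08 ± 0.13 (SE; limma FDR = 0.817). Both of its probes gave -0.08.

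**Figure D3:**
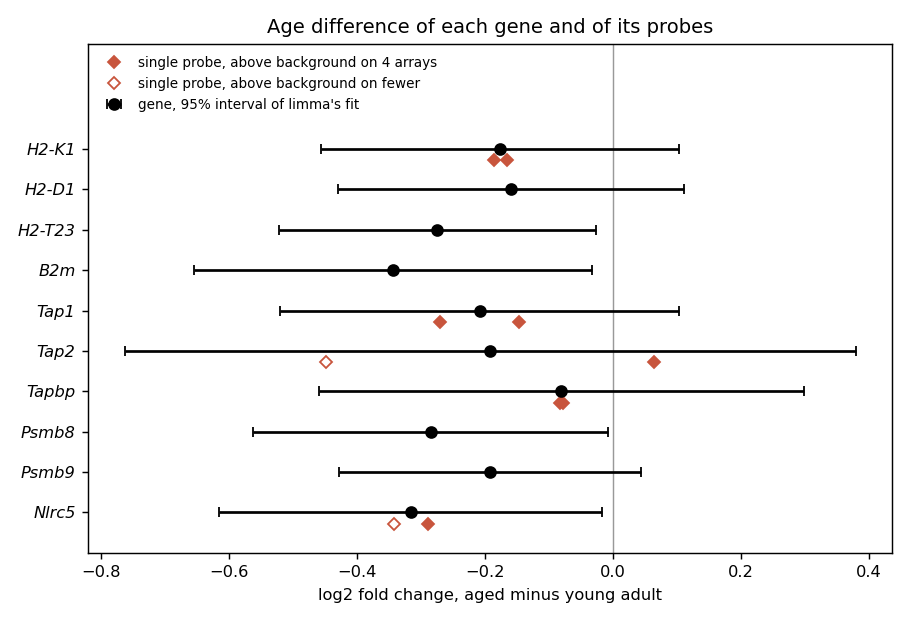
The log2 fold change (aged minus young adult, horizontal axis) of each gene with the 95% interval of limma's fit (black), and of each probe for genes with 2 probes (red diamonds, open where the probe was not above background on all 4 arrays). The points of all 10 genes lie left of 0, the intervals of *H2-T23*, *B2m*, *Psmb8* and *Nlrc5* exclude 0 before adjustment, and the bright *Tap2* probe is the one of 15 to the right of 0.

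The immunoproteasome subunits cut peptides suited to class I binding. *Psmb8* (LMP7) read 1275 and 1160 in the young adult pools and 1019 and 978 in the aged pools. The groups did not overlap, and the log2 fold change was -0.28 ± 0.09 (SE), or -17.9%, with a 95% interval from -0.56 to -0.01 (limma FDR = 0.373). *Psmb9* (LMP2) read 1207 and 1177 in the young adult pools and 1068 and 1020 in the aged pools. These groups were tight and separate, with a log2 fold change of -0.19 ± 0.08 (SE; limma FDR = 0.447).

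Each immunoproteasome subunit has a constitutive counterpart at the same catalytic position, and the counterparts lay nearer to 0. They differed by -0.07 (log2 fold change) for *Psmb5*, 0.09 for *Psmb6* and 0.06 for *Psmb7*, against -0.28, -0.19 and, for the third immunoproteasome subunit *Psmb10*, -0.16. None of these genes was called. Within each array, the log2 difference between an immunoproteasome subunit and its counterpart was lower in aged than in young adult mice, by -0.22 for *Psmb8* against *Psmb5*, -0.28 for *Psmb9* against *Psmb6* and -0.22 for *Psmb10* against *Psmb7*. In all 3 pairs the value on each aged array was below that on each young adult array. For single genes this held in 21.8% of all genes, and no share was counted over other gene pairs. The exact two-sided permutation P was 0.333 for each of the 3 pairs, also after Benjamini-Hochberg adjustment, which is the smallest that 2 arrays against 2 allow.

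*Nlrc5* read 131 and 148 in the young adult pools and 113 and 111 in the aged pools. The aged arrays were close together and below both young adult arrays. This gave a log2 fold change of -0.32 ± 0.10 (SE), or -19.7%, with a 95% interval from -0.62 to -0.02 (limma FDR = 0.364). Its brighter probe, at 340 and 353 against 299 and 269, gave a log2 fold change of -0.29. The dimmer probe, at 50.4 and 62.0 against 42.4 and 45.9, was above background on 1 young adult array and on no aged array, so no fold is given for it. With the scanner's processed signal in place of the corrected median signal, the log2 fold change of *Nlrc5* was -0.64 after 75th percentile scaling and -0.61 after quantile normalization. Both averages include the dimmer probe, and its part in them was not tested. With only probes well above background, on the corrected median signal, the log2 fold change was -0.29.

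As a summary of the set, the median deviation of the 10 genes from their own means was 0.12 and 0.08 (log2) in the young adult pools and -0.10 and -0.14 in the aged pools. It describes the genes listed and carries no test. On the slide that held both ages, all 10 genes were lower in the aged pool, with a median of -0.22 and a range from -0.47 (*Tap2*) to -0.07 (*H2-D1*), against -0.01 for all genes. The *Tap2* value took its sign from the dim probe (41.7 in the young adult pool, 20.6 in the aged pool), which was above background on no aged array. The bright *Tap2* probe was higher in the aged pool of that slide (5966 in the young adult pool, 6287 in the aged pool). Between the other young adult and aged arrays, which lay on separate slides, 9 of the 10 were lower, with *Tap2* at 0.09, and the median was -0.24. One array against one gives no test.

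Other ways of processing the intensities changed which genes were called, and leaving out an array moved several estimates. In 13 of the 18 settings drawn in the map of settings all 10 genes were lower, and in the others 9 were, with *Tap2* or *Tapbp* above 0. Up to 6 of the 10 were called lower, under an intensity trend in the variance, where 7.71% of all genes were called lower; none was called higher under any setting. Another setting used only bright probes: a probe was kept when either age had it well above background on each of its 2 arrays, even if it was dim in the other age. With these probes only, 5 of the 10 were called, against 12.6% of the genes tested. A background offset of 50 gave 3 (all genes, 5.43%), no background correction 2 (all genes, 4.91%), and the scanner's processed signal after quantile normalization 2 (all genes, 5.14%). The last 2 were *B2m* and *Nlrc5*, the latter with its dim probe averaged in. None of the 10 was called with an offset of 16 (all genes, 3.71%), with the processed signal (1.89%) or the corrected signal (1.81%) scaled to the 75th percentile, with cyclic loess (3.02%), with flagged spots kept (2.32%) or with the brightest probe of each gene (3.09%). The replicate block and each array left out gave no call for any gene. Without aged array 2, the log2 fold changes of *H2-K1* and *H2-D1* were both -0.10, and without aged array 1 that of *Tap1* was -0.11. *Tapbp* was at -0.18 without young adult array 2 and at -0.17 without aged array 1. *B2m* was called in 5 settings and *H2-T23* in 4.

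**Figure D4:**
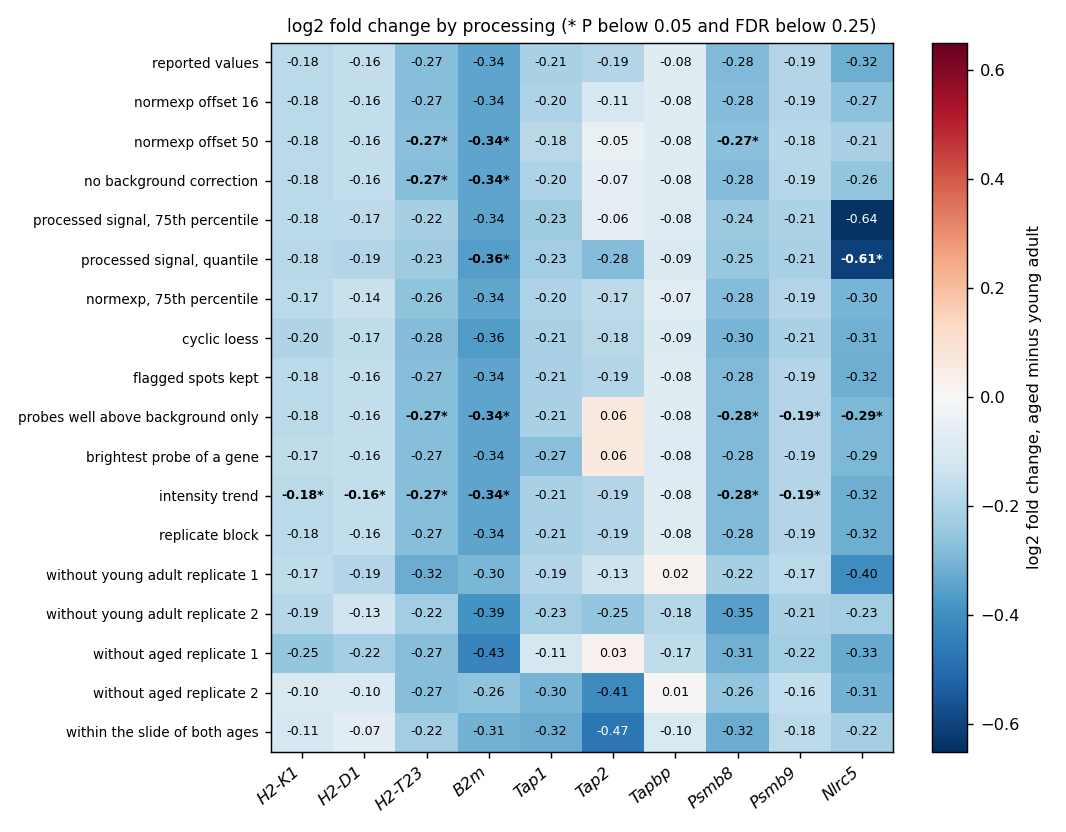
The log2 fold change (colour and number, blue for lower in aged mice) of the 10 genes (columns) under each way of processing the arrays (rows); an asterisk and bold type mark P below 0.05 and FDR below 0.25. The row within one slide has no test. *B2m* stays between -0.43 and -0.26, and the sign changes only in *Tap2* and *Tapbp*.

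The genes outside the pathway whose profile over the 4 arrays was most like the median profile of the 10 were *Apbb1ip*, *Adgrl2*, *Arhgdig*, *Krt17* and *Ankrd50*, among 15463 named genes with a mean of at least 100. Their Euclidean distances on centred log2 values were between 0.0205 and 0.0259, and their log2 fold changes were between -0.23 and -0.21. *Psmb9* was the member nearest to that median profile (0.0397), with 35 other genes nearer, and *Tap2* the farthest (0.348). Likeness over 4 arrays is a loose measure, since few patterns can be told apart with so few points.

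The other genes of the pathway differed by group, from medians near 0 to medians well below it. Among 20 other class I and class I-like heavy chains on the array (26 listed), the mean was lower in aged mice in 16, with a median log2 fold change of -0.19. *Azgp1* was the one called gene, and it rose: this soluble class I-like protein, linked to lipid breakdown, read 5726 and 5722 in the young adult pools and 9051 and 8253 in the aged pools (log2 fold change 0.59 ± 0.09 SE, limma FDR = 0.213). No other chain was called, against 3.98% of all genes in either direction. The following examples were picked after their values were seen. *H2-Q10*, whose product is secreted, read 286 and 303 against 189 and 231 (log2 fold change -0.50 ± 0.14 SE, limma FDR = 0.322). *Fcgrt*, the heavy chain of the neonatal Fc receptor, which also pairs with beta-2-microglobulin, read 3079 and 3322 against 2487 and 2576 (-0.34 ± 0.09, limma FDR = 0.309). In the opposite direction, *H2-Q4* read 91011 and 79940 against 103780 and 94201, with both aged arrays above the young adult arrays (0.21 ± 0.12, limma FDR = 0.542).

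The peptide loading chaperones and trimming peptidases lay around 0. Of 13, which include *Calr*, *Canx*, *Pdia3* and *Erap1*, none was called, 6 had a lower mean, and the median was 0.02. The 14 subunits of the constitutive 20S proteasome also had a median of 0.02, with 3 lower means and no call. The 5 measured immunoproteasome and activator genes outside the set (6 listed) had a median of -0.06, with 3 lower means and no call. The 11 class II presentation genes, which load peptides from outside the cell, had a median of -0.13 with 9 lower means and no call. For comparison, 3.98% of all genes were called in either direction and 48.5% had a lower mean.

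The regulators of MHC genes had a median of -0.01 over 20 genes, of which 12 had a lower mean and 1 was called. Over all genes, 48.5% had a lower mean and 3.98% were called in either direction. *Irf8*, an interferon regulatory factor of myeloid cells, fell, from 718 and 771 in young adult mice to 530 and 528 in the aged pools (log2 fold change -0.49 ± 0.08 SE, limma FDR = 0.233). Of 16 interferon receptor and signalling genes, 11 had a lower mean and none was called, with a median of -0.06.

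Interferon-stimulated genes held most of the calls among the pathway lists. Of 27 on the array (30 listed), 9 were called lower and none higher, 24 had a lower mean, and the median was -0.36. Among all genes, 2.33% were called lower and 48.5% had a lower mean. The largest changes among the 9 were in *Irf7*, the interferon regulatory factor that amplifies type I interferon (1171 and 1191 in young adult mice, 658 and 687 in the aged pools; log2 fold change -0.81 ± 0.08 SE, limma FDR = 0.183), and in *Oas1a*, an antiviral oligoadenylate synthetase (3442 and 3696 against 2050 and 2073; -0.79 ± 0.08 SE, limma FDR = 0.185). *Gbp3*, a guanylate-binding protein, fell by 0.73 and *Ifi44* by 0.70 on the log2 scale. With any 1 of the 4 arrays left out, 0 of the list were called. The other calls on all 4 arrays, named outside the rule, were *Oasl2*, *Iigp1*, *Isg15*, *Ifit3* and *Bst2*, between -0.58 and -0.50. The genes of class I presentation, several of which are themselves induced by interferon, lay nearer to 0, and the difference between the lists was not tested.

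**Figure D5:**
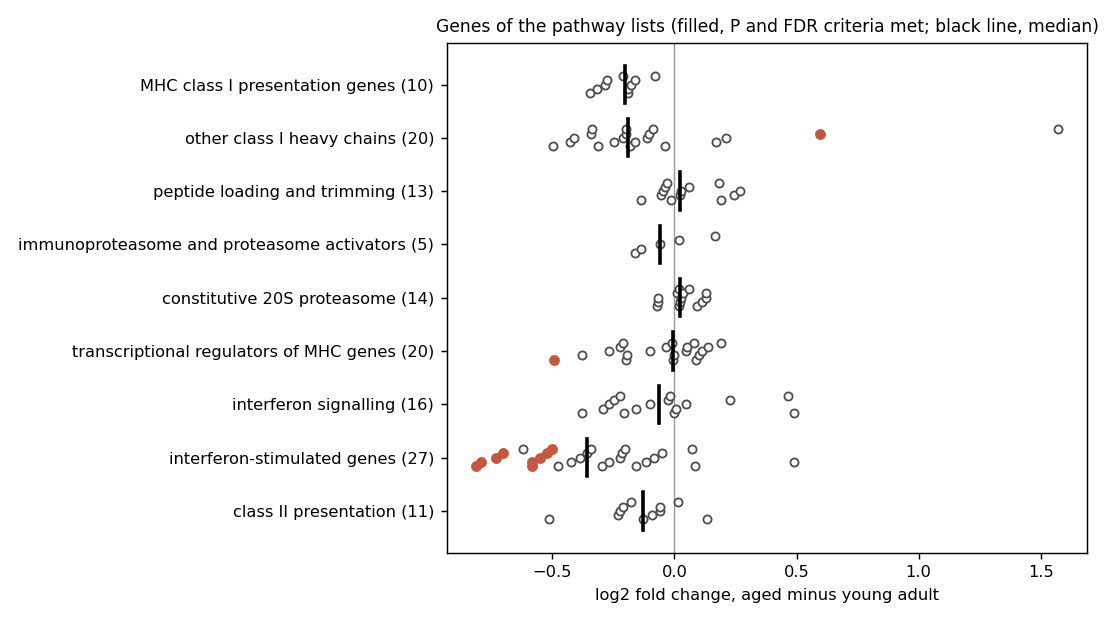
The log2 fold change (aged minus young adult, horizontal axis) of every gene of the pathway lists (rows, with the number of genes measured); filled points were called, and the black line is the median of a list. The 10 presentation genes lie in a narrow band below 0, and 9 of the 11 filled points outside them are interferon-stimulated genes.

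Markers of several cell types differed between the ages in these same pools, and their part in the values above was not tested. Over all genes, 2.33% were called lower, 1.65% were called higher and 48.5% had a lower mean. The 17 markers of CD8 T and NK cells, the cells that read class I, had 0 calls in either direction, 7 lower means and a median of 0.04, with a summed level of 2143 to 2217 in the young adult pools and 2164 to 2207 in the aged pools; detected members ran from *Klrk1* (-0.43) to *Tbx21* (0.42), and 3 of the 17 were above background on no array. The study lists *Klrb1c*, one of the 17, as higher in aged mice. Averaged over its 3 probes here, it read 62.1 and 54.4 in young adult pools against 72.2 and 51.5, and the discrepancy was not examined. The 9 general leukocyte markers all had a lower mean, and *Cd52* and *Coro1a* were called lower (log2 fold changes -0.79 and -0.53). Their summed level was 11544 to 11705 in the young adult pools and 8525 to 8602 in the aged pools. Of the 16 macrophage and dendritic cell markers, 7 were called lower, and all 16 had a lower mean, from *Aif1* (-0.82) to *C1qb* (-0.16), with a summed level of 15143 to 15481 against 11569 to 11696. Of the 9 B and plasma cell markers none was called, 7 had a lower mean, and the summed level was 8795 to 9040 against 7544 to 8934. Endothelial cells, which carry much class I, had 7 of 10 markers called lower, all 10 with a lower mean, from *Tie1* (-0.84) to *Pecam1* (-0.33), and a summed level of 24200 to 24368 against 16219 to 16299. Of the 7 fibroblast markers, 5 were called lower, and all 7 had a lower mean, from *Col1a1* (-1.98) to *Dcn* (-0.19, not called), with a summed level of 223796 to 248502 against 116549 to 124535.

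Markers of mature neurons and sustentacular cells, which lie in the olfactory epithelium, were detected and had no call lower. All 9 markers of mature olfactory neurons were above background on every array, with a higher mean in aged mice in each, from *Gnal* (0.05) to *Stoml3* (0.43), the one called gene. Over all genes, 1.65% were called higher. By histology, the study counted fewer OMP-positive mature neurons in aged mice, which is a count of cells and not of RNA. The 6 markers of sustentacular cells, the supporting cells of the epithelium, had no call and a median of 0.04, from *Ugt2a1* (-0.38) to *Cyp2g1* (0.16). Of 8 pituitary markers, *Prl* and *Gh* were called higher in aged mice, with *Prl* at 282 and 238 against 8155 and 7969 and *Gh* at 37.3 and 37.1 against 326 and 336, while 3 of the 8 were above background on no array. Both aged pools carried this signal, so the genes of class I presentation could not be compared without it, and its part in their values was not tested.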

How the data were processed

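The authors pooled RNA, hybridized Agilent SurePrint G3 arrays and extracted spots with Feature Extraction 11.0.1.1 (array design on mm9). Per the file headers, the deposited scanner files hold each spot's median signal intensity and local background, a processed signal and quality flags, not normalized across arrays. The deposited series table equalled the processed signal for all 62976 spots of each array. From the median intensities, background was corrected by normexp (offset 0; limma 3.58.1, R 4.3.3), control and outlier-flagged spots (88 to 118 per array) were dropped, spots of a probe averaged, arrays quantile normalized, and probes of a gene averaged on the log2 scale. Accessions matched a RefSeq symbol (GRCm38.p6) for 58.3% of probes. Ages were compared by limma (lmFit, eBayes) on all 4 arrays without covariates, with Benjamini-Hochberg FDR. The fit was also run on simulated arrays with independent noise for each gene. These held no slide effect and no shared mice, and no conclusion is drawn from them. The number of arrays limits the precision.

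The members and lists were chosen with earlier results of these data known. Named are all members, called genes of each list (the 4 with the largest change where more were called), the extreme detected markers, the constitutive proteasome counterparts, *Prl* and *Gh*, and the 5 nearest profiles; any other gene named was chosen outside this rule, with its values known. Alternatives covered background, normalization, probe choice, variance model, replicate block, slide, each array left out and stricter limits. Histology and qRT-PCR were not analysed here.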

Additional observations from a re-analysis of the deposited data

How the results depend on the processing

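The median log2 fold change of the 10 genes stayed between -0.26 and -0.18 under every alternative run. It was -0.23 with the processed signal after quantile normalization and with the brightest probe of a gene, and leaving out each array in turn gave -0.26 to -0.19. The calls depended more on the processing. Members called lower, 0 in the reported values, were 3 with a normexp offset of 50, 2 without background correction, 2 with the quantile-normalized processed signal, 5 with probes well above background only and 6 with an intensity trend. Called genes of the companion lists, 11 as reported, were 19 with an offset of 16, 28 with an offset of 50 and 23 without background correction. They were 23 with the quantile-normalized processed signal, 43 with bright probes only and 43 with the trend. Scaled to the 75th percentile, the processed signal gave 8 and the corrected signal 9. The study's further limits (mean of at least 100, fold of at least 1.5) gave 5. Calls over all genes rose as well, from 1063 lower and 754 higher of 45616 to 2478 and 2107 with an offset of 50. They were 3517 and 3607 with the trend, and 3707 and 3446 of 29504 with bright probes only. Interferon-stimulated genes called lower, 9 of 27 as reported (all genes, 2.33%), were 16 with an offset of 50 (5.43%). There were 19 with bright probes only (12.6%) and 16 with the trend (7.71%), and the 9 remained among the calls in these 3 settings. The count was 7 with either signal scaled to the 75th percentile and 4 under the study's further limits. At an FDR below 0.05, the counts of companion and of interferon-stimulated genes were both 0. They were also 0 to 0 with each array left out in turn and 0 with the replicate number as a block, as were the calls over all genes; the smallest FDR was then 0.433 with the block. The deviations of same-numbered arrays correlated at -0.08 over all genes and at 0.08 over those with a mean of at least 100. These values do not settle whether the numbers pair the arrays. *Tap2* and *Tapbp* changed sign: *Tap2* was at 0.0646 with bright probes only and with the brightest probe, and at -0.41 to 0.0304 with an array left out (above 0 without aged array 1), and *Tapbp* at -0.18 to 0.0221 (above 0 without young adult array 1, 0.0221, or aged array 2, 0.00592). The cause was not tested. With the processed signal scaled to its 75th percentile, the median of all genes was 0.07, and all 10 members were lower. A random slide block could not be fitted with 4 arrays. Signal near background limits the dim probes of *Tap2* and *Nlrc5*, and a lone array of an age was assumed to vary like the other age when its partner was left out.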
